A study of Mus musculus with 29 samples.

Results

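RNA of control MPP4 cells was set against RNA of control ST-HSC cells, in 4 libraries against 3, over every gene of the deposited table. The libraries were chosen by the cell name and the word control in their column names, which gave 7 of the 29 libraries of the series. MPP4 are multipotent progenitors of the bone marrow that lean towards the lymphoid lineage, and ST-HSC are short-term haematopoietic stem cells. All cells came from bone marrow of young C57BL/6 mice taken 6 weeks after pIpC. This agent mimics double-stranded RNA, induces interferon and is commonly used to switch on Mx1-Cre. The control animals had this treatment too, and the labels give their genotype no further than the word control. The mutant libraries of the series (Dnmt3a mut, with no allele in the labels) include 4 MPP4 and 4 ST-HSC libraries, which gave the same step in separate libraries. Whole-gene counts do not show which exons of Dnmt3a the RNA holds, so they do not check the genotype labels. The descriptions carry a number that libraries of different populations share (MPP4 and ST-HSC replicates 1, 2 and 3 pair up by it), and the labels do not say whether it marks an animal, so the p-values cover only the spread over libraries, part of which may be technical. They give no sorting gates either.

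In the usual scheme of mouse haematopoiesis, MPP4 cells are defined by the FLT3 receptor on their surface, and they give rise to most early lymphoid progenitors while keeping some myeloid potential. ST-HSC, also called MPP1, sit just below the long-term stem cells, and megakaryocytic and erythroid potential is largely gone by the MPP4 stage. Lymphoid priming is the low-level transcription of lymphoid genes in cells that are not yet committed. It depends on transcription factors such as Ikaros, the product of Ikzf1, and on Notch and FLT3 signalling.

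Levels are CPM, counts put on a common library total, scaled by TMM, a method that sets the bulk of genes equal between libraries. Control MPP4 libraries held 6659290 to 10374672 counts and control ST-HSC libraries 6133994 to 8634517, so that 3 counts, taken as the floor of a library, correspond to 0.288 to 0.477 CPM. From 16.06% to 29.60% of the counts lay in rRNA genes of the mitochondria. Control ST-HSC replicate 1 stood apart through antibody genes and ST-HSC replicate 3 through endothelial genes, as described with those genes. Mutant ST-HSC replicate 2 had 405.9 CPM of Slamf1, the CD150 gene of long-term stem cells (LT-HSC). The other 3 mutant ST-HSC libraries had 0.777 to 1.833 CPM. The mutant LT-HSC libraries had 31.09 to 54.15 CPM, so the value lay outside both populations. Whether this library carries the right label was not tested. The mutant results below are given with and without mutant ST-HSC replicate 2.

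Of 14937 genes tested, 223 (1.49%) differed between control MPP4 and control ST-HSC at an adjusted p under 0.05 (edgeR quasi-likelihood test over the 14 control libraries, Benjamini-Hochberg). Whatever their p, 7131 tested genes had a positive difference, MPP4 minus ST-HSC, and 7798 a negative one. In MPP4, 97 genes were higher (0.649%) and 126 lower (0.844%), and 2245 genes had an unadjusted p under 0.05. The fitted differences of the lower genes were larger. Of the 126 lower genes, 92 differed by at least 4-fold, against 18 of the 97 higher genes. However, 18 lower genes had 0 counts in all MPP4 libraries and 4 higher genes had 0 in all ST-HSC libraries, where a fitted fold is imprecise. In 219 of the 223 the libraries of the groups did not overlap, and among all tested genes the MPP4 libraries lay wholly above for 6.25% and wholly below for 5.75%. Counts of calls depended on single libraries. Without ST-HSC replicate 3 the fit called 96 genes, without ST-HSC replicate 2 114, without MPP4 replicates 2, 3 and 4 97, 121 and 103, and without ST-HSC replicate 1 268. In a bulk sample, fewer cells of a type and less RNA per cell cannot be told apart.

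**Figure D1:**
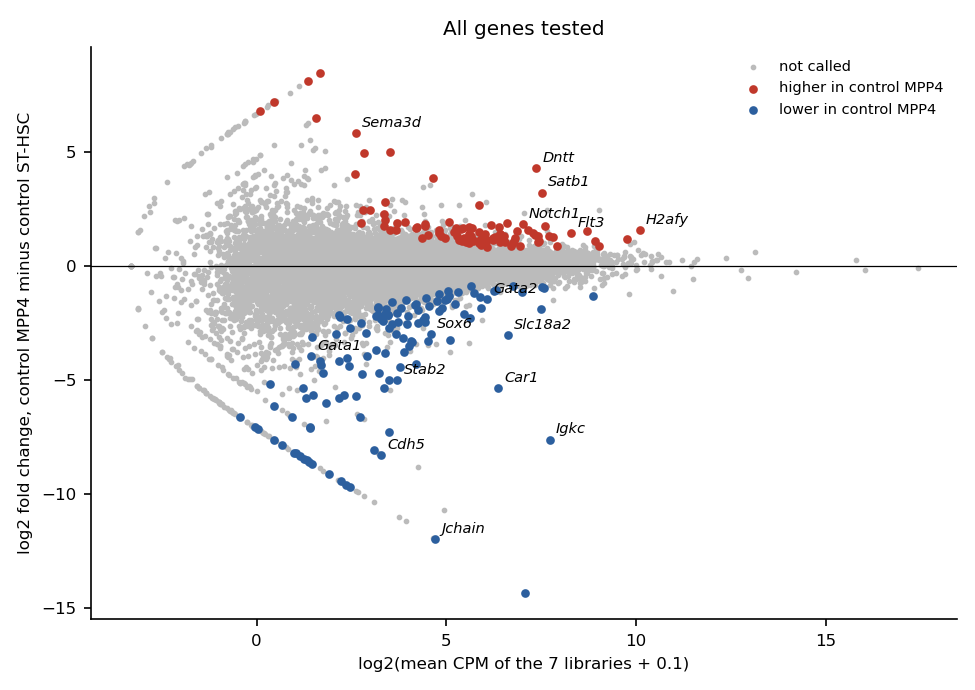
Log2 fold change, control MPP4 minus control ST-HSC, against the log2 mean CPM of the 7 libraries for the 14937 genes tested. Red points are the 97 genes called higher and blue points the 126 called lower, and the blue points reach further from 0 than most red ones.

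Genes that are commonly used to gate these cells were looked at first, as a check of the labels. Flt3, the receptor for FLT3 ligand (ENSMUSG00000042817, GRCm38 chromosome 5, 147330741 to 147400489, minus strand), had 444.5, 379.2, 460.4 and 424.7 CPM in control MPP4, against 129.9, 127.5 and 207.9 CPM in control ST-HSC. Every MPP4 library lay above every ST-HSC library, and Flt3 rose 2.73-fold (log2 1.45 ± 0.219 SE, edgeR adjusted p = 0.00394). Slamf1 had 0 counts in all 4 MPP4 libraries, against 0.765, 2.15 and 1.59 CPM in ST-HSC, so it was at least 4.15-fold lower in MPP4 (edgeR adjusted p = 0.0241). That call ended without MPP4 replicate 2, 3 or 4 or ST-HSC replicate 2 or 3 (adjusted p = 0.0532 to 0.0762). Control LT-HSC, the long-term stem cells, averaged 24.18 CPM of Slamf1, so the ST-HSC libraries were low in it as well.

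Cd48, the gene of a surface protein absent from most stem cells, averaged 43.2 ± 3.25 CPM in MPP4 and 12.4 ± 4.48 in ST-HSC (SD), and Cd34 averaged 489 ± 65.1 and 257 ± 16.8 CPM in the same order. Neither passed (edgeR adjusted p = 0.135 and 0.13), although the libraries did not overlap for either gene. The stem-cell factor receptor gene Kit averaged 444.3 ± 39.98 CPM in MPP4 and 643 ± 31.2 in ST-HSC (adjusted p = 0.239), and Ly6a, the Sca-1 gene, 30.0 ± 4.57 and 35.7 ± 17.6 CPM (0.765). The endothelial protein C receptor gene Procr, the CD45 gene Ptprc and the interleukin-7 receptor gene Il7r also did not pass (0.611, 0.915 and 0.807). Il7r had 15.48 to 35.78 CPM in MPP4, against 37.25, 0.113 and 0 CPM in ST-HSC replicates 1, 2 and 3. Its result therefore leaned on ST-HSC replicate 1, the library with antibody genes. In the mutant step Il7r did not pass (edgeR adjusted p = 0.8), but did without mutant ST-HSC replicate 2 (log2 4.854, 0.0134). Of the 9 genes, 1 rose and 1 fell, and without control ST-HSC replicate 1 the list had 3 called members.

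Notch1, Satb1 and Flt3 were the most significant of the higher genes in MPP4. Notch1, the receptor that drives T-lineage choice (ENSMUSG00000026923, chromosome 2, 26457903 to 26516663, minus strand), had 154.8, 152.9, 246.6 and 190.6 CPM in MPP4, against 67.9, 39.5 and 47.9 CPM in ST-HSC. It rose 3.56-fold (log2 1.83 ± 0.250 SE, edgeR adjusted p = 0.00206). Its relative Notch2 averaged 259 ± 43.1 CPM in MPP4 and 218 ± 10.7 in ST-HSC and did not pass (0.596), and Notch1 alone passed in edgeR among 17 members of the Notch list, of which DESeq2 called 2.

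Satb1, which encodes a chromatin organiser needed for early lymphoid specification (ENSMUSG00000023927, chromosome 17, 51736187 to 51833290, minus strand), had 295.8, 283.7, 327.1 and 271.5 CPM in MPP4, against 43.5, 20.7 and 29.9 CPM in ST-HSC. The groups were far apart, and Satb1 rose 9.29-fold (log2 3.22 ± 0.486 SE, adjusted p = 0.00394). Control LT-HSC averaged 23.3 CPM and control MPP3, the myeloid-biased progenitors, 66.3 CPM of Satb1.

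Dntt encodes terminal transferase, the enzyme that adds bases at antigen-receptor joints (ENSMUSG00000025014, chromosome 19, 41029275 to 41059525, plus strand). It had 209.9, 403.5, 278.6 and 224.6 CPM in MPP4, against 36.7, 1.58 and 3.82 CPM in ST-HSC. The highest ST-HSC value was in replicate 1, the library with antibody genes, and Dntt rose 19.4-fold (log2 4.28 ± 0.866 SE, adjusted p = 0.0194). Without that library the log2 difference was 6.72 (0.00199), so the size of the rise depended on it. The call ended without MPP4 replicate 2, ST-HSC replicate 2 or ST-HSC replicate 3 (edgeR adjusted p = 0.0559, 0.0541 and 0.0781).

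Over the list of 37 lymphoid priming genes, 36 were tested, 6 rose and 1 fell, with a median log2 difference of 0.22, against -0.03 over all genes tested. The other genes that rose were Ikzf1, at 644 ± 45.8 CPM in MPP4 and 348 ± 68.1 in ST-HSC (1.83-fold, edgeR adjusted p = 0.0283), and the transcription factor gene Mef2c, at 300 and 159 CPM (0.0417), which failed without any 1 library but ST-HSC replicate 1 (0.0564 to 0.161). Foxo1, a transcription factor gene of both lymphoid cells and resting stem cells, fell 2.74-fold, to 18.7 ± 4.00 CPM in MPP4, against 50.5 ± 12.8 in ST-HSC (0.017). The recombinase gene Rag2 averaged 22.4 CPM in MPP4 and 2.87 in ST-HSC without passing (0.123), and the B-lineage factor genes Ebf1 (113 and 193 CPM, 0.623) and Pax5 (2.44 and 9.93 CPM, 0.338) did not pass either.

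The list summed to 4676 to 5187 CPM in the MPP4 libraries, against 4821 CPM in ST-HSC replicate 1 and 3010 and 3045 CPM in ST-HSC replicates 2 and 3. Without ST-HSC replicate 1 the list had 8 called members and a median of 0.93. With it kept, the count fell to 4 without ST-HSC replicate 3 and to 3 without MPP4 replicate 2. Ikzf1 lost its call without MPP4 replicate 2 or 4 or ST-HSC replicate 2 or 3 (adjusted p = 0.0752, 0.0674, 0.0812 and 0.115), and Foxo1 without MPP4 replicate 2 or 4 or ST-HSC replicate 2 (0.0502, 0.0599 and 0.069).

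**Figure D2:**
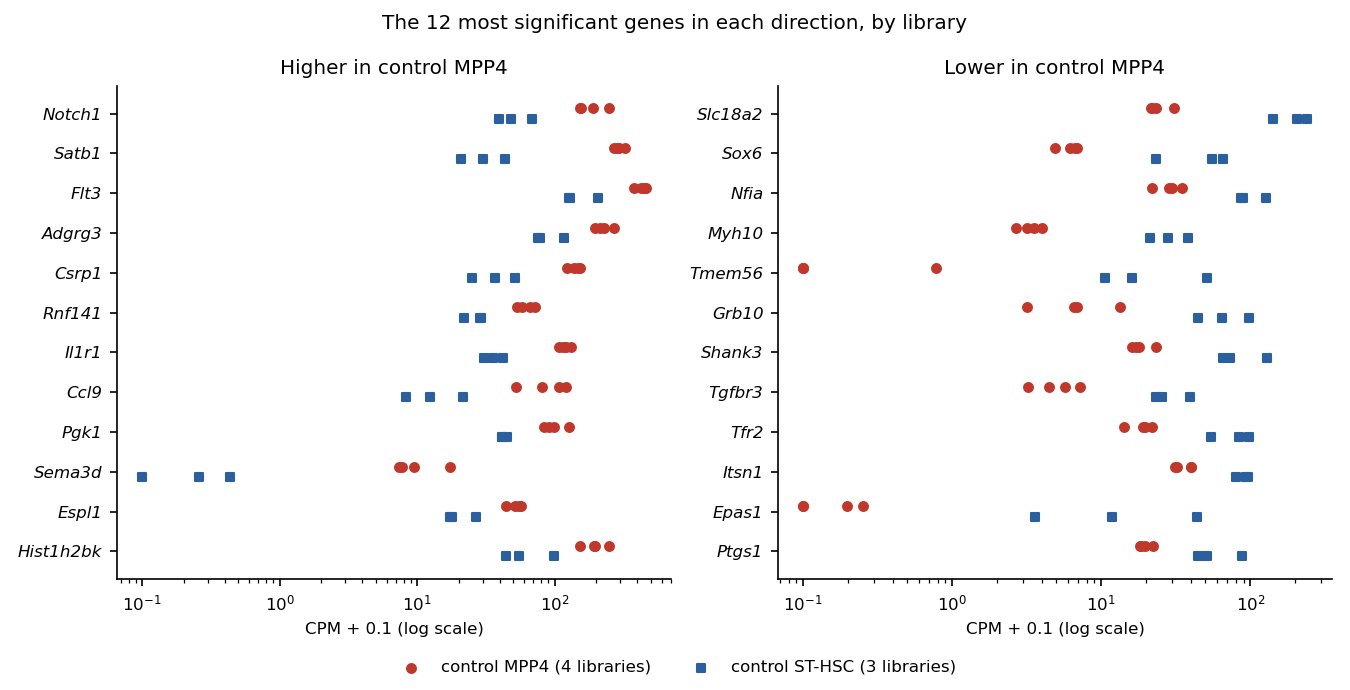
CPM plus 0.1, on a log axis, of the 12 genes with the smallest p among those higher and those lower in control MPP4, with 4 MPP4 libraries as red circles above 3 ST-HSC libraries as blue squares. For every gene drawn the groups do not overlap, which the choice of these genes required.

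Il1r1, the interleukin-1 receptor (ENSMUSG00000026072, chromosome 1, 40225080 to 40317257), had 120.1, 114.7, 131.8 and 106.9 CPM in MPP4, against 35.6, 30.5 and 41.9 CPM in ST-HSC. It rose 3.26-fold (log2 1.71 ± 0.297 SE, edgeR adjusted p = 0.00979). Control LT-HSC averaged 8.61 CPM of Il1r1 and control MPP3 28.8 CPM, so MPP4 was the highest of the 4 control populations. Adgrg3, an adhesion G protein-coupled receptor, rose 2.51-fold to 228 ± 31.8 CPM in MPP4, against 90.2 ± 23.4 in ST-HSC (0.00609). Ramp1, which helps form the receptor for the neuropeptide CGRP, rose 2.22-fold to 77.9 ± 6.03 CPM, against 34.7 ± 0.803 (0.0214), and its call ended without MPP4 replicate 4 or ST-HSC replicate 2 or 3 (0.0632, 0.0762 and 0.0763).

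Sema3d, a secreted guidance cue, was at or near 0 in the other control populations. It had 7.24, 7.68, 17.1 and 9.34 CPM in MPP4, against 0, 0.339 and 0.159 CPM in ST-HSC, and means of 0.0297 CPM in LT-HSC and 0.0459 CPM in MPP3 (edgeR adjusted p = 0.0123). The ST-HSC values lay at or under the floor of 3 counts, so the fitted ratio is imprecise and is not given. The chemokine gene Ccl9 had 108.0, 80.6, 52.0 and 120.1 CPM in MPP4, against 8.19, 12.3 and 21.3 CPM in ST-HSC, a 6.45-fold rise (0.0112). Control MPP3 averaged 96.2 CPM of Ccl9, close to the MPP4 mean of 90.2 CPM.

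Of the other top higher genes, Csrp1, a LIM-domain protein of the actin cytoskeleton, rose 3.72-fold to 141 ± 13.5 CPM in MPP4, against 37.6 ± 13.2 in ST-HSC (edgeR adjusted p = 0.00639). Rnf141, a RING-finger gene, rose 2.33-fold (0.00904). The glycolytic kinase gene Pgk1 rose 2.34-fold to 99.9 ± 18.5 CPM, against 42.4 ± 1.98 (0.0119), whereas the glucose transporter gene Slc2a3 fell 1.86-fold to 135 ± 32.2 CPM, against 248 ± 4.42 (0.04). These were the only called members among 20 glycolysis genes, whose median was 0.27, and Slc2a3 lost its call without MPP4 replicate 2 or 4 or any 1 of the ST-HSC libraries (0.127, 0.122, 0.0762, 0.102 and 0.0961).

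In the list of chromatin and polycomb genes, Satb1 and H2afy rose among 27 tested, with a median of 0.20. H2afy encodes the histone variant macroH2A1 (ENSMUSG00000015937, chromosome 13, 56073619 to 56136361) and had 1460, 1545, 1205 and 1881 CPM in MPP4, against 381, 435 and 708 CPM in ST-HSC. It rose 2.98-fold (log2 1.57 ± 0.302 SE, edgeR adjusted p = 0.015), although not without ST-HSC replicate 2 (0.0688). Control LT-HSC averaged 260 CPM and MPP3 933 CPM. None of 17 genes that write or erase DNA methylation passed in edgeR, with 5 at an unadjusted p under 0.05 and 0 called by DESeq2, and Tet1 averaged 201 ± 17.9 CPM in MPP4 and 207 ± 20.9 in ST-HSC.

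Genes of cell division were higher in MPP4 than in ST-HSC. All 28 genes of the G2 and mitosis list had a positive difference, with a median of 1.05, and 7 rose past the threshold. They were Kif11, Iqgap3, Bub1b, Top2a, Tpx2, Kif23 and Nusap1. Kif11, the motor that separates the spindle poles (ENSMUSG00000012443, chromosome 19, 37376403 to 37421859), had 252.7, 333.5, 312.5 and 224.3 CPM in MPP4, against 129.8, 133.6 and 66.2 CPM in ST-HSC, a 2.53-fold rise (log2 1.34 ± 0.249 SE, edgeR adjusted p = 0.0136). Top2a, the topoisomerase of mitotic chromosomes, had 416.6, 726.6, 592.7 and 579.9 CPM in MPP4, against 293.1, 220.8 and 83.9 CPM in ST-HSC (2.88-fold, 0.0306). Bub1b, a spindle checkpoint kinase, averaged 69.1 ± 20.5 CPM in MPP4 and 20.8 ± 10.8 in ST-HSC (3.27-fold, 0.0174).

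ST-HSC replicate 3 was the lowest library for these 3 genes, and the list summed to 3061 to 4490 CPM in MPP4, against 2208, 1920 and 1224 CPM in ST-HSC replicates 1, 2 and 3. The count of called members was 12 without ST-HSC replicate 1, 2 without ST-HSC replicate 3 and 2 without MPP4 replicate 2, and the median stayed between 0.93 and 1.31 in every alternative tried. Kif11 passed in all 14 alternatives. Top2a lost its call without MPP4 replicate 2, 3 or 4 or ST-HSC replicate 2 or 3 (edgeR adjusted p = 0.0866, 0.0658, 0.0682, 0.0808 and 0.0685), and Bub1b without MPP4 replicate 2 (0.0577). Iqgap3 lost it without ST-HSC replicate 2 or 3 (0.0705 and 0.0556), Tpx2 without MPP4 replicate 2 or 3 or ST-HSC replicate 1 or 3 (0.0579 to 0.102), and Kif23 without MPP4 replicate 2 or 3 or ST-HSC replicate 2 or 3 (0.0939 to 0.143), and Nusap1 without either of these or MPP4 replicate 4 (0.0831 to 0.166). ST-HSC was the lowest of the control populations for Kif11, with LT-HSC at 238 and MPP3 at 319 CPM. The whole list summed to 2928 to 6385 CPM in control LT-HSC and 3987 to 4886 CPM in control MPP3. The MPP4 sums overlapped both ranges, and the ST-HSC sums lay below both.

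In the list of DNA replication and S phase, 31 of 35 genes had a positive difference and the median was 0.59, but none passed in edgeR, with 16 at an unadjusted p under 0.05 and 7 called by DESeq2. Pcna, the sliding clamp of replication, averaged 267 ± 77.0 CPM in MPP4 and 206 ± 11.9 in ST-HSC (edgeR adjusted p = 0.594). Cdk6, the kinase of early G1 in progenitors, averaged 601 ± 48.9 CPM in MPP4 and 375 ± 66.8 in ST-HSC without passing (0.142). Among 24 genes of quiescence and cyclin-dependent kinase control, Foxo1 alone passed, and the median was 0.03. Outside the lists, the separase gene Espl1 rose 2.5-fold to 51.9 ± 5.45 CPM in MPP4, against 20.6 ± 5.29 in ST-HSC (0.0123), and the histone gene Hist1h2bk rose 2.97-fold (0.0123). Espl1 lost its call without ST-HSC replicate 3 (0.0528), and Hist1h2bk without ST-HSC replicate 2 or 3 (0.0555 and 0.0556).

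The promoters of 3 of these genes are shown because they hold sequence elements known from cell-cycle promoters. These elements are CCAAT boxes and the cell cycle homology region TTTGAA. Of the 7 called G2 and mitosis genes, 6 had a promoter in the RefSeq set. TTTGAA was in 4 of them and CCAAT in 4, and Nusap1 held neither, so the promoters shown were picked for their matches. Each run covers 200 bases before to 20 bases after the RefSeq start (GRCm38.p6), and capitals mark every match to TTTGAA or CCAAT on either strand, so that TTCAAA and ATTGG are matches on the opposite strand. No match overlaps another. The windows are chr19:37376182-37376401 on the plus strand for Kif11, chr11:99024170-99024389 on the minus strand for Top2a and chr2:118598011-118598230 on the plus strand for Bub1b.
Kif11: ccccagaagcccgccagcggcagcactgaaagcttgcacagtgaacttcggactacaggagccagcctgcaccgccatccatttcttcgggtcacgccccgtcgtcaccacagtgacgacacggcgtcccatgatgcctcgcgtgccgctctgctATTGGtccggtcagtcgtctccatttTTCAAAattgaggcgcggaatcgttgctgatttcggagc
Top2a: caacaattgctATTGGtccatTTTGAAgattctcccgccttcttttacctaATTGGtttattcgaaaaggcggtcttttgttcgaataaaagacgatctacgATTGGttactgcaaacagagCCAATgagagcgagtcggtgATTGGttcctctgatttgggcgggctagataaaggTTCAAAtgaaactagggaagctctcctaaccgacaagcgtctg
Bub1b: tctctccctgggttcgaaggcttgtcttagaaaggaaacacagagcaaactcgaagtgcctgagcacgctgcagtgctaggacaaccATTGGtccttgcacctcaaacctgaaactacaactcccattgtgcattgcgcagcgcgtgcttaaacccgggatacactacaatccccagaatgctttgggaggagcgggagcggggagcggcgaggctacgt
Kif11 holds TTTGAA on the opposite strand at bases -19 to -14 from the start and Top2a at -23 to -18, and Bub1b holds a CCAAT match only. Of the 97 higher genes 74 had a promoter in the table, and 36.5% of these held TTTGAA. The share was 11.6% of 86 lower genes, 10.5% of 10662 tested genes and 15.3% of all 27025 genes with a promoter. Without the G2 and mitosis list the share was 33.8% of 68 higher genes. The higher genes outside that list still include genes of cell division, such as Espl1, so the subset was not cleared of them. CCAAT was held by 51.4% of the higher genes, 26.7% of the lower genes and 37.8% of the tested genes. A match is a string of letters and not evidence of binding.

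**Figure D3:**
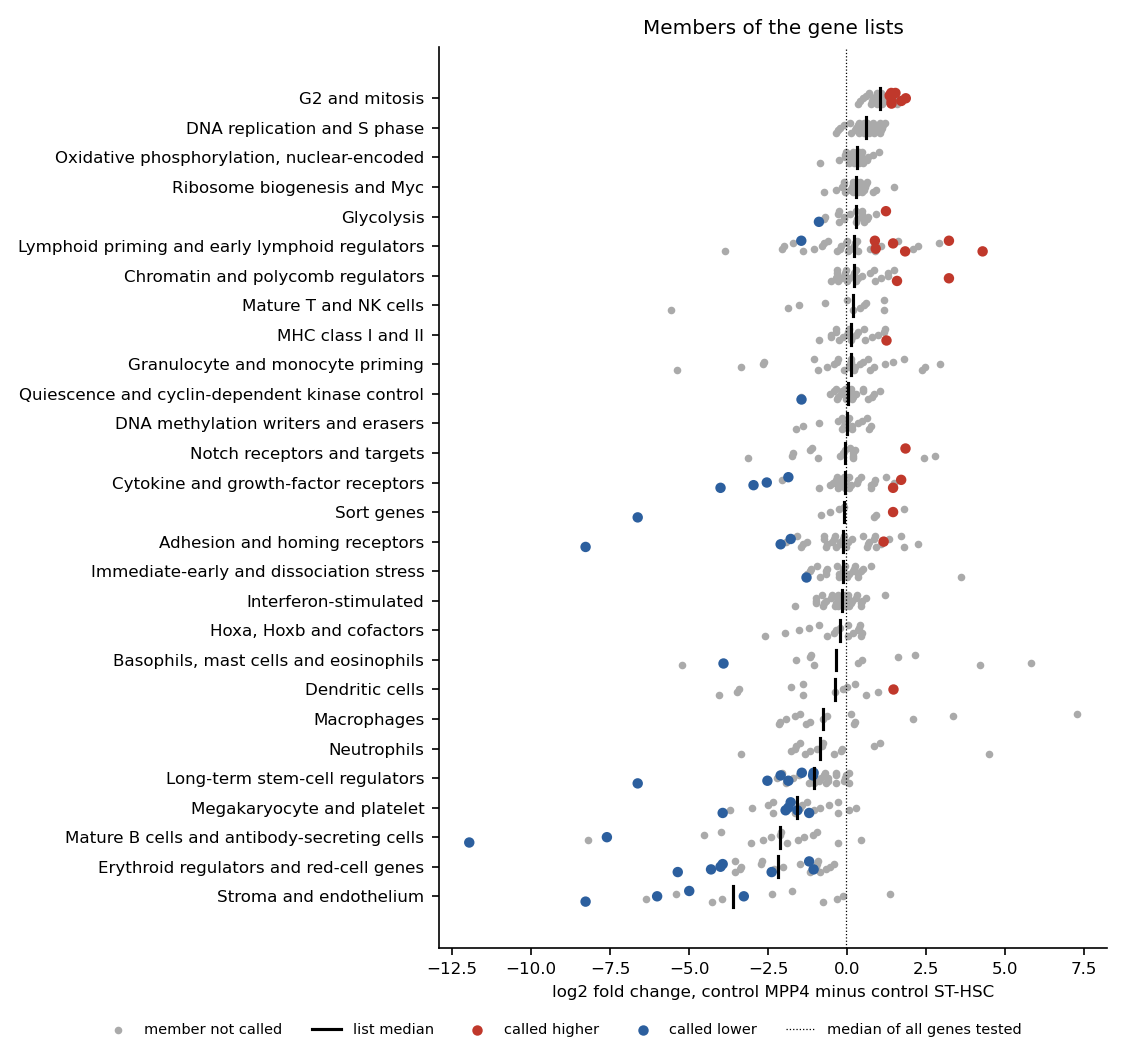
Log2 fold changes, control MPP4 minus control ST-HSC, of the members of 28 gene lists, ordered by list median (black bars), with called members in red (higher) or blue (lower) and the median of all genes tested as a dotted line. The G2 and mitosis list lies wholly to the right of 0, and the erythroid list wholly to the left.

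Slc18a2, the vesicular monoamine transporter (ENSMUSG00000025094, chromosome 19, 59260896 to 59296012, plus strand), had the smallest p of all genes. It had 21.7, 30.5, 23.3 and 21.6 CPM in MPP4, against 142.3, 239.1 and 204.2 CPM in ST-HSC, and fell 8.09-fold (log2 -3.02 ± 0.280 SE, edgeR adjusted p = 6.9e-05). LT-HSC averaged 194 CPM and MPP3 80.5 CPM, so MPP4 was the lowest of the 4 populations. Of the 126 lower genes, MPP4 was the lowest control population for 112. The choice of these genes by a low MPP4 level against ST-HSC favours that count, and the share over all tested genes was not computed.

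Sox6, a transcription factor gene of erythroid maturation (ENSMUSG00000051910, chromosome 7, 115470872 to 116038796, minus strand), had 6.56, 6.72, 4.81 and 6.06 CPM in MPP4, against 65.3, 55.2 and 23.2 CPM in ST-HSC (7.98-fold lower, edgeR adjusted p = 0.000599). Nfia, a nuclear factor I gene, had 34.9, 28.2, 21.9 and 29.9 CPM in MPP4, against 89.7, 127.6 and 86.7 CPM in ST-HSC (3.56-fold lower, 0.00105). The groups did not overlap for either gene, and the LT-HSC and MPP3 means of Nfia, 80.7 and 74.7 CPM, lay near the ST-HSC mean of 101 CPM.

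Myh10, a nonmuscle myosin heavy chain, fell 8.96-fold to 3.25 ± 0.545 CPM in MPP4, against 29.1 ± 8.66 in ST-HSC (0.00204 in edgeR). Tmem56, a transmembrane protein gene, had 0.683, 0, 0 and 0 CPM in MPP4, against 15.95, 50.9 and 10.5 CPM in ST-HSC (0.00204). Grb10, an imprinted adaptor of insulin and growth-factor receptors, had 13.3, 6.82, 6.46 and 3.08 CPM in MPP4, against 97.3, 64.7 and 44.7 CPM in ST-HSC, and fell 9.46-fold (0.00204). Tgfbr3, the TGF-beta co-receptor betaglycan, fell 5.84-fold to 5.03 ± 1.67 CPM, against 29.4 ± 8.77 (0.00209). Grb10 and Tgfbr3 were higher still in LT-HSC, at 93.8 and 87.9 CPM, and 52 of the 126 lower genes had a higher mean in LT-HSC than in ST-HSC. The share over all tested genes was not computed, and the choice of the 126 by their ST-HSC values affects this count, so it shows no trend.

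Shank3, a scaffold protein gene, fell 4.85-fold (0.00206 in edgeR), Itsn1, an endocytic scaffold, 2.53-fold (0.00327), and the cyclooxygenase gene Ptgs1 3.15-fold (0.00348). Tfr2, a transferrin receptor that also associates with the erythropoietin receptor, fell 4.26-fold to 18.6 ± 3.23 CPM in MPP4, against 78.7 ± 21.8 in ST-HSC (0.00209).

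Of 31 regulators and markers of long-term stem cells, 29 had a negative difference, 7 fell and none rose, with a median of -1.04. Gata2 (ENSMUSG00000015053, chromosome 6, 88193891 to 88207032), a transcription factor gene of stem-cell maintenance, had 36.9, 42.0, 50.5 and 26.5 CPM in MPP4, against 113.7, 93.8 and 105.7 CPM in ST-HSC, and fell 2.71-fold (log2 -1.44 ± 0.283 SE, edgeR adjusted p = 0.017). The groups did not overlap. Also among those that fell were Slamf1, the adhesion gene Esam (0.0355), the factor genes Tal1 (0.0417) and Mecom (0.0487), and the transglutaminase gene Tgm2 (0.0485).

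The calls of this list leaned on ST-HSC replicate 3, without which none of its members passed, while 7 passed without ST-HSC replicate 1 and the median stayed between -1.04 and -0.86 in all alternatives. Without ST-HSC replicate 3 the edgeR adjusted p was 0.0528 for Gata2, 0.11 for Esam, 0.146 for Tal1, 0.0576 for Slamf1 and 0.221 for Tgm2. Single libraries other than ST-HSC replicate 3 also ended calls. MPP4 replicate 4 did so for Gata2 (0.0598), MPP4 replicates 1, 2 and 4 and ST-HSC replicate 2 for Esam (0.0801 to 0.118), all MPP4 libraries and ST-HSC replicate 2 for Tal1 (0.0794 to 0.113), and MPP4 replicates 1, 3 and 4 and ST-HSC replicate 2 for Tgm2 (0.0808 to 0.141). Mecom passed without ST-HSC replicate 1 and failed without any other library (0.0668 to 0.187). Hlf, a stem-cell factor gene, averaged 752 CPM in MPP4 and 950 in ST-HSC without passing (0.611), and none of 17 Hox genes and cofactors passed in edgeR (3 at an unadjusted p under 0.05 and 1 called by DESeq2), with Meis1 at 213 ± 38.0 and 390 ± 106 CPM (0.0857).

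All 24 erythroid genes had a negative difference and 7 fell, with a median of -2.18. Car1, carbonic anhydrase 1 (ENSMUSG00000027556, chromosome 3, 14766216 to 14808368), had 10.7, 4.03, 1.65 and 1.89 CPM in MPP4, against 135.1, 322.4 and 95.5 CPM in ST-HSC, and fell 41.1-fold (log2 -5.36 ± 0.854 SE, edgeR adjusted p = 0.00567). Gata1, the master factor of red cells and platelets (ENSMUSG00000031162, chromosome X, 7959260 to 7978071), had 0.410, 0.480, 0.451 and 0.0994 CPM in MPP4, against 4.26, 9.61 and 2.87 CPM in ST-HSC (0.00806). The MPP4 values of Gata1 lay around the floor of 3 counts, so no fold is given. The erythropoietin receptor gene Epor had 1.64, 1.06, 0 and 0 CPM in MPP4, against 10.6, 13.7 and 8.60 CPM in ST-HSC (0.0214). The water channel gene Aqp1 had 4.24, 2.88, 0.751 and 0.199 CPM in MPP4, against 25.0, 51.5 and 42.5 CPM in ST-HSC (0.00964). The lipid transporter gene Mfsd2b fell 5.25-fold (0.00669), the GATA1 cofactor gene Zfpm1 2.3-fold (0.0322) and Tal1 2.09-fold (0.0417).

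The erythroid list summed to 773.8 to 1573 CPM in MPP4, against 2731, 2020 and 2237 CPM in ST-HSC. Control MPP3 had 2399 to 3375 CPM and control LT-HSC 1335 to 31730 CPM. The neutrophil list also spread widely over the control LT-HSC libraries, from 143.6 to 12970 CPM. These libraries are among the 14 of the edgeR fit, so they enter its spread as well as the LT-HSC means given here. Called members numbered 8 without ST-HSC replicate 1, 6 without ST-HSC replicate 3 and 4 without ST-HSC replicate 2. Epor lost its call without MPP4 replicate 2 or ST-HSC replicate 2 (edgeR adjusted p = 0.0577 and 0.0665), and Zfpm1 without any of the 4 MPP4 libraries or ST-HSC replicate 2 or 3 (0.0551 to 0.106).

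Of 23 megakaryocyte and platelet genes tested, 21 had a negative difference and 6 fell, with a median of -1.58. Mmrn1, a protein of platelet granules, had 14.1, 17.2, 5.71 and 13.4 CPM in MPP4, against 39.9, 69.9 and 36.0 CPM in ST-HSC, and fell 3.87-fold (log2 -1.95 ± 0.309 SE, edgeR adjusted p = 0.00559). The platelet integrin genes Itgb3 and Itga2b fell 3.46-fold (0.0132) and 2.98-fold (0.0174), and Gata1 and Zfpm1, which are shared with the erythroid list, fell as given above. LT-HSC averaged 135 CPM of Mmrn1. Without ST-HSC replicate 3 the list kept 3 called members, and Itga2b lost its call without MPP4 replicate 4 or ST-HSC replicate 2 or 3 (0.0617, 0.0688 and 0.0514).

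None of 28 granulocyte and monocyte priming genes passed in edgeR, with 7 at an unadjusted p under 0.05 and 3 called by DESeq2, and the median was 0.12. Without ST-HSC replicate 1, 3 members passed in edgeR. Mpo, the myeloperoxidase gene, averaged 795 ± 198 CPM in MPP4 and 144 ± 63.2 in ST-HSC without overlap (adjusted p = 0.189), and control MPP3 averaged 6859 CPM. Control LT-HSC ranged from 5.082 to 738 CPM of Mpo, and the edgeR p-value rests on a spread that includes these libraries. It is therefore not a measure of the spread within MPP4 and ST-HSC alone. In the mutant step Mpo was called higher (log2 2.75, adjusted p = 0.0013, and 2.50, 0.00283 without mutant ST-HSC replicate 2). Among 34 receptors for cytokines and growth factors, 2 members rose, Flt3 and Il1r1. Those that fell included Tgfbr3, Epor and Il1rl1, the interleukin-33 receptor. Il1rl1 had 1.06 ± 0.560 CPM in MPP4 and 8.35 ± 3.22 in ST-HSC (0.0417), a call that each of the 7 libraries could end (0.0578 to 0.128).

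Interferon-stimulated genes, which pIpC induces soon after injection, had none of 35 called in edgeR, with 3 at an unadjusted p under 0.05, 1 called by DESeq2 and a median of -0.17. Psmb8, a subunit of the immunoproteasome, was the single called member of 21 MHC and antigen-processing genes. It rose 2.32-fold to 81.7 ± 21.3 CPM in MPP4, against 34.9 ± 11 in ST-HSC (edgeR adjusted p = 0.0241), and not without MPP4 replicate 2 or 3 or ST-HSC replicate 2 or 3 (0.0768, 0.0583, 0.102 and 0.0947). Fosb, an immediate-early gene that also responds to cell handling, fell 2.5-fold to 287 ± 52.4 CPM, against 711 ± 202 (0.0336), and its call ended without any 1 of 6 of the 7 libraries (0.0576 to 0.14). Ribosome biogenesis genes (28 tested, median 0.29) and nuclear-encoded oxidative phosphorylation genes (30 tested, median 0.31) had no called member in edgeR, with 5 and 2 at an unadjusted p under 0.05 and 0 and 1 called by DESeq2.

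Some genes of endothelial cells were present in all ST-HSC libraries and at or near 0 in most MPP4 libraries. Cdh5, the VE-cadherin gene (ENSMUSG00000031871, chromosome 8, 104101625 to 104144511), had 0, 0, 0 and 0.199 CPM in MPP4, against 10.8, 10.6 and 45.0 CPM in ST-HSC (edgeR adjusted p = 0.00904). Stab2, a scavenger receptor of sinusoidal endothelium, had 2.87, 0.672, 0.150 and 0 CPM in MPP4, against 25.2, 13.6 and 48.2 CPM in ST-HSC (0.03). Kdr, the VEGF receptor 2 gene, had 0, 0.384, 0 and 0 CPM in MPP4, against 12.7, 6.22 and 4.78 CPM in ST-HSC (0.0336). ST-HSC replicate 3 was the highest for Cdh5 and Stab2, and LT-HSC averaged 0.215 CPM of Cdh5 and MPP3 1.48 CPM. The hypoxia factor gene Epas1, among the 12 most significant lower genes, followed the same order in ST-HSC, with 0, 0.096, 0.150 and 0 CPM in MPP4, against 11.7, 3.504 and 43.8 CPM (0.00341).

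In the stroma and endothelium list 4 of 14 tested members fell, among them the matrix gene Sparc (9.66-fold, edgeR adjusted p = 0.00516). The median was -3.61, or -2.83 with Adipoq, the 1 tested gene at 0 in every MPP4 library, set to its bound. The list summed to 191.1 to 281.1 CPM in MPP4, against 241.8, 307.6 and 629.5 CPM in ST-HSC, and most of the MPP4 sum was Pecam1, which blood stem cells also express (188.7 ± 31.5 CPM in MPP4 and 205.1 ± 131 in ST-HSC, 0.927). Col3a1 and Bglap of stromal cells were at 0 in every library of both groups, and Adipoq and Pdgfra were at 0 in every MPP4 library, against at most 3.73 and 0.226 CPM in ST-HSC. Without ST-HSC replicate 3, 1 member passed, and Cdh5, Stab2 and Kdr had adjusted p = 0.0514, 0.108 and 0.0556. Stab2 also lost its call without MPP4 replicate 2, 3 or 4 (0.0702 to 0.101) and Kdr without any single library but MPP4 replicate 2 (0.0556 to 0.1). In the list of 37 adhesion and homing receptors, Ramp1 rose and Cdh5, Itgb3 and Esam fell. The part of endothelial RNA in the other lower genes was not tested.

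Antibody genes were high in 1 ST-HSC library. Igkc, the kappa light-chain constant region, had 4.37, 1.73, 4.21 and 0.298 CPM in MPP4, against 1403, 2.26 and 62.4 CPM in ST-HSC. Jchain, which joins antibody units in plasma cells, had 0 counts in all MPP4 libraries, against 171, 0.113 and 10.03 CPM in ST-HSC, where replicate 2 was itself under the floor. Both were called lower (edgeR adjusted p = 0.0304 and 0.0417), and without ST-HSC replicate 1 neither passed (0.156 and 0.151). The same held without any 1 of the MPP4 libraries (0.0661 to 0.105 for Igkc and 0.0813 to 0.113 for Jchain), and Jchain also failed without ST-HSC replicate 3 (0.0556). Control MPP3 averaged 3170 CPM of Igkc and 360 CPM of Jchain, more than either group compared here. Igkc had 1.43, 0.753, 0.121 and 0.869 CPM in mutant MPP4, against 16.1, 86.3, 105.5 and 3.00 CPM in mutant ST-HSC, and was called lower there too (0.00956, and 0.0224 without mutant ST-HSC replicate 2). The 17 tested members of the list of mature B cells and antibody-secreting cells summed to 111.3 to 154 CPM in MPP4, against 2074, 62.06 and 130.2 CPM in ST-HSC. Its median was -2.12, and 1.19 without ST-HSC replicate 1, so its sign rested on that library. RSEM shares reads between similar antibody segments, so their values are uncertain.

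No member of the lists for T and NK cells (11 tested), neutrophils (16) or macrophages (15) passed in edgeR, with 2, 0 and 4 at an unadjusted p under 0.05 and at most 2 called by DESeq2. The lists for dendritic cells and for basophils, mast cells and eosinophils had Flt3 and Gata1 as their called members. The eosinophil granule gene Prg2 had 22.1, 27.1, 2.55 and 0 CPM in MPP4, against 117.6, 0 and 0.159 CPM in ST-HSC (adjusted p = 0.694), so again ST-HSC replicate 1 was the highest library.

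**Figure D4:**
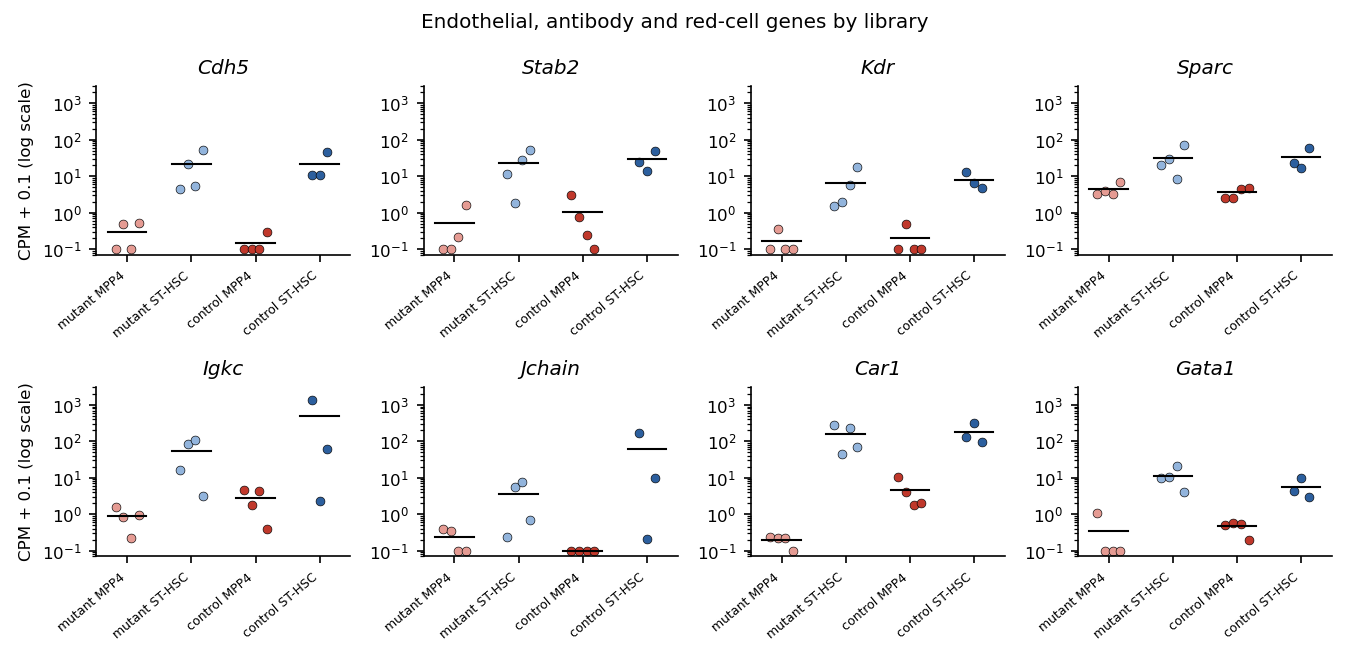
CPM plus 0.1 (log axis) of 8 genes in each library of mutant MPP4, mutant ST-HSC, control MPP4 and control ST-HSC, with bars at group means. Cdh5, Stab2 and Kdr are near 0 in MPP4 of both genotypes, and Igkc and Jchain are highest in control ST-HSC replicate 1.

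The same step was then read in the mutant libraries, which share no sample with the control comparison. Mutant MPP4 and mutant ST-HSC differed in 331 of 14766 genes (2.24%), with 171 higher (1.16%) and 160 lower (1.08%) in MPP4 (edgeR, 15 mutant libraries). Of the 223 genes called in the controls, 118 were called in the mutants in the same direction, 45 higher and 73 lower, and 0 in the opposite direction. These are 52.9% of the control calls and 35.6% of the mutant calls. The sign was the same for 213 of the 220 control calls that were tested in the mutants. The share of equal signs over all tested genes was not computed. Without mutant ST-HSC replicate 2, 310 genes were called, 116 were shared and 211 of 218 had the same sign.

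Satb1 had 260.6, 448.7, 310.2 and 345.3 CPM in mutant MPP4, against 24.7, 20.7, 28.4 and 62.7 CPM in mutant ST-HSC (log2 3.32 ± 0.333 SE, edgeR adjusted p = 2.09e-05). Flt3 differed by log2 1.73 (0.000247), Notch1 by 1.64 (0.00212) and Il1r1 by 1.62 (0.0125) in the mutants. Without mutant ST-HSC replicate 2 the log2 differences were 3.15 for Satb1 (6.51e-05), 1.79 for Flt3 (0.000558), 1.865 for Notch1 (0.00122) and 1.61 for Il1r1 (0.0312). Of the 12 top lower genes, 11 passed in the mutants, with Itsn1 as the exception (log2 -1.28, adjusted p = 0.082), and the same 11 passed without mutant ST-HSC replicate 2 (Itsn1 0.132). Of the 12 top higher genes, 7 passed, and Rnf141, Pgk1, Sema3d, Espl1 and Hist1h2bk did not (0.144, 0.507, 0.112, 0.0964 and 0.0695). Without mutant ST-HSC replicate 2, Espl1 (0.0122) and Hist1h2bk (0.00703) passed, while Csrp1 (0.0977) and Ccl9 (0.058) did not. In the mutants 20 genes of the G2 and mitosis list rose, with a median of 1.40, and 14 erythroid genes fell, against 18 with a median of 1.28 and 15 without that library.

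The test of the difference between the genotypes, mutant step minus control step, called 0 of 15915 genes (0%) in edgeR, with 942 (5.92%) at an unadjusted p under 0.05 and 20 called by DESeq2. Of the 223 control calls, 42 had an unadjusted p under 0.05 in it. These genes were chosen for their control step, which is part of the tested difference. That choice alone can enlarge their differences, so the count cannot be compared with the share over all genes. Dntt had 270.6, 348.1, 340.5 and 241.7 CPM in mutant MPP4, against 1.13, 5.26, 1.09 and 0.360 CPM in mutant ST-HSC. Its step was larger by log2 3.06 in the mutants (95% interval 1.121 to 4.997, unadjusted p = 0.00456). Without control ST-HSC replicate 1, the library with the highest Dntt, the difference in edgeR was 0.65 (unadjusted p = 0.466). Without mutant ST-HSC replicate 2 it was 4.17 (0.000515).

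Car1 had 0.143, 0.126, 0.121 and 0 CPM in mutant MPP4, all under the floor, against 271.8, 44.2, 232.2 and 70.3 CPM in mutant ST-HSC. The fitted log2 step was -10.47 in the mutants and -5.36 in the controls, a difference of -5.13 that depends on these values under the floor (95% interval -8.35 to -1.91, unadjusted p = 0.00406), and it was -5.44 (0.00241) without mutant ST-HSC replicate 2. Among the 24 top genes the smallest p of the difference was that of Slc18a2, whose mutant step was log2 -1.95 and control step -3.02 (difference 1.04, 95% interval 0.21 to 1.87, unadjusted p = 0.0199). Without mutant ST-HSC replicate 2 it was 0.83 (0.0492), and without control ST-HSC replicate 2 0.87 (0.0628). Csrp1 (-0.91, 0.0257) and Pgk1 (-0.77, 0.0439) also had an unadjusted p under 0.05, which lay between 0.00731 and 0.103 for Csrp1 and between 0.00506 and 0.109 for Pgk1 without single libraries (-1.06, 0.0104 and -0.67, 0.0846 without mutant ST-HSC replicate 2). None of these passed adjustment over all genes. Slc18a2, Csrp1 and Pgk1 were also chosen for their control step, so their unadjusted p-values cannot separate a genotype difference from that choice.

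**Figure D5:**
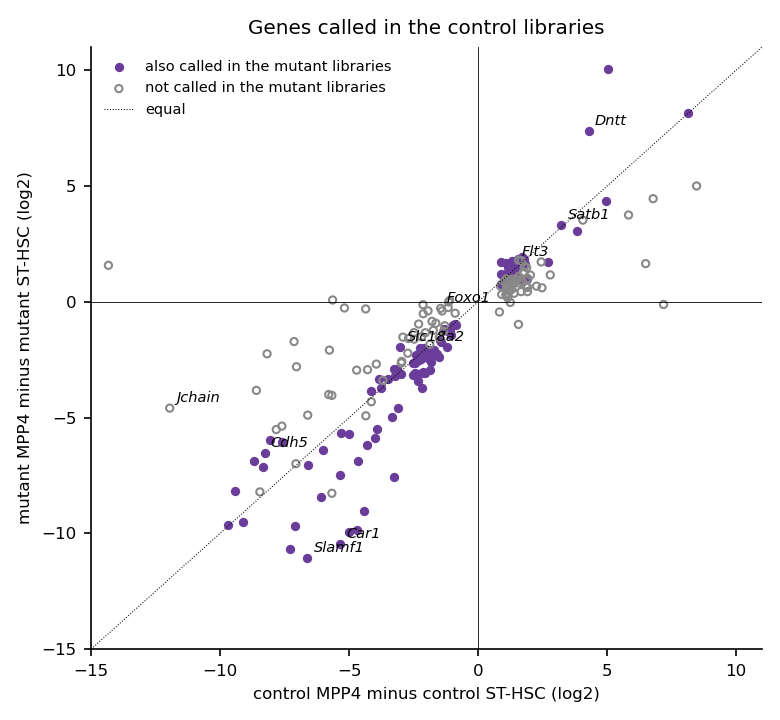
Log2 fold change of MPP4 minus ST-HSC in the mutant libraries against that in the control libraries, for the 220 control calls tested in both. Filled points are the 118 genes called in both, and the dotted line marks equal values.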

How the data were processed

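The measured quantity was polyA RNA of sorted bone marrow cells, with expected counts deposited by the authors for 38924 Ensembl identifiers, all of them whole numbers. The submitters' processing notes name the GRCm38 build, edgeR 3.5.3, RSEM 1.2.12, SAMtools 0.1.18 and Bowtie2 2.2.0, with no role or order for any. RSEM shares reads between similar genes, so copies such as antibody segments and histone genes are uncertain, and strand handling is not given, so overlapping genes cannot be told apart. GENCODE M21 (GRCm38) gave symbols and coordinates for 37607 identifiers.

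Genes were tested with edgeR 4.0.16 (R 4.3.3): TMM scaling, filterByExpr (10 counts, total of 15), 4 group means over the 14 control libraries, which share 1 estimate of the spread, a two-sided quasi-likelihood test of MPP4 minus ST-HSC, and Benjamini-Hochberg adjustment over all genes at 0.05. The 15 mutant libraries were fitted alike, and the difference between genotypes in 1 fit of 29 libraries. DESeq2 1.42.0 was an alternative. SE values are those of the log2 difference, and ± on CPM is the SD over libraries (4 MPP4, 3 ST-HSC). A fold against 0 counts was computed from 3 counts per library. Floors cover counting error only, since PCR copies are not independent molecules. The 9 replicate pairs differed beyond sampling noise (chi-square per degree of freedom 20.29 to 55.35).

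The 28 gene lists (681 genes) and the comparison were chosen with earlier results of these data known, and the lists are described by counts and medians, not tested. Named were the sort genes, the 12 most significant non-overlapping genes in each direction, up to 6 called members of each list (otherwise the most abundant member) and the 5 top genes with the smallest p of the difference. Other members of the lists were named after their values were seen. The procedure was tested on simulated data. Promoters came from RefSeq (GRCm38.p6), 200 bases before to 20 after the start. The values of 1 gene are not reported here.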

Additional observations from a re-analysis of the deposited data

Results flagged for a closer look

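In groups of 4 libraries, 15 of 152 gene levels had 1 library farther from the rest than Dixon's 95% criterion allows, and chance flags about 1 in 20. In control MPP4, replicate 1 was the high library for Tmem56 (0.683 CPM) and Mfsd2b (6.29 CPM), replicate 2 for Kdr (0.384 CPM) and Tgm2 (10.6 CPM), and replicate 4 for Cdh5 (0.199 CPM), where the Tmem56, Kdr and Cdh5 values rest on a few counts against 0 in the other 3 libraries. Tgm2 without that library fell more, with a log2 difference of -3.86.

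Mutant ST-HSC replicate 2 was the high library for 6 genes, with Slamf1 at 405.9, Il7r at 31.0, Notch1 at 82.5, Adgrg3 at 100.2, Espl1 at 46.2 and Dntt at 5.26 CPM. Mutant ST-HSC replicate 4 was high for Sema3d (3.36 CPM). In mutant MPP4, replicate 1 was high for Rnf141 (75.5 CPM), replicate 3 for Slamf1 (0.121 CPM, against 0 in the others), and replicate 4 was low for Car1, with 0 CPM.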

How the results depend on the processing

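The count of 223 genes was 606 with DESeq2 (278 higher, 328 lower, all 223 among them), 359 without the filter on low counts (216 lower) and 169 with the 7 libraries alone (130 shared). It was 225 with DESeq2's size factors and 225 without mitochondrial rRNA and the gene Gm42418. That gene held 3.898% to 7.426% of the counts in the 7 libraries. A fit with the replicate block, the number in the descriptions, called 164 (60 higher, 104 lower, 139 shared), and ended the calls of Slamf1, Tal1, Tgm2, Kdr, Igkc, Psmb8, Fosb and Slc2a3 (adjusted p = 0.0524 to 0.105). The labels do not say what the numbers mark, so the main fit does not pair the libraries by them. Deviations of same-numbered libraries correlated at -0.0377, 0.0515 and -0.0287, and those of differently numbered libraries at -0.111 to 0.102. So few libraries cannot decide whether the numbers pair them. Leaving out single libraries gave 96 to 268 genes (20 to 142 higher, 61 to 126 lower). A covariate for the first field of the column names, chosen after seeing the data, gave 251. The mutant count of 331 was 722 with DESeq2 (334 higher, 388 lower) and 215 to 328 without single libraries (113 to 157 higher, 101 to 171 lower). The difference between genotypes stayed at 0 genes in edgeR under every alternative, and DESeq2 called 20 (15 higher, 5 lower).

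No named gene that passed changed sign in the 14 alternatives, and 29 of 60 passed in all of them. Signs changed for uncalled genes only. The log2 difference of Ptprc was 0.03 with the replicate block and 0.029 with the covariate. Without single libraries the log2 difference lay between -0.244 and 0.179 for Ptprc, -2.283 and 7.305 for Prg2, -0.526 and 0.211 for Ly6a, -0.222 and 0.062 for Gbp7, -0.109 and 0.036 for Tet1, and -0.153 and 0.363 for Cd68, and the sign of Prg2 and Ly6a turned without ST-HSC replicate 1. The causes were not tested. Of 392 list medians under alternatives, 65 moved beyond the spread of MPP4 libraries. Levels under about 0.5 CPM rest on 0 to 3 counts.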

Other observations

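Several genes outside the lists, named here after their values were seen, were lower in ST-HSC than in MPP4 and had under 5 CPM in every ST-HSC library. Ddx4, a germ-cell RNA helicase gene, had 15.99, 12.7, 6.46 and 12.9 CPM in MPP4, against 0.109, 0.678 and 0.318 CPM in ST-HSC (edgeR adjusted p = 0.0174, and 0.0511 and 0.0659 without MPP4 replicate 2 and ST-HSC replicate 3). Kcng1, a potassium channel subunit gene, had 11.3, 17.6, 15.6 and 32.8 CPM in MPP4, against 1.64, 0 and 0 CPM in ST-HSC (0.0317). Lpar1, a lysophosphatidic acid receptor gene, had 0 counts in all ST-HSC libraries and was at least 14.2-fold higher in MPP4 (0.0214). Cd33, a sialic acid receptor gene, rose 14.4-fold to 35.7, 51.3, 32.1 and 47.2 CPM in MPP4, against 4.81, 1.47 and 2.23 CPM in ST-HSC (0.0358), while LT-HSC averaged 42.4 CPM. The calls of Kcng1, Lpar1 and Cd33 could be ended by 5, 4 and 6 of the 7 libraries, ST-HSC replicates 2 and 3 and MPP4 replicates 2 and 4 among them in each case (highest adjusted p = 0.1002, 0.0764 and 0.133).

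Among the 126 lower genes, 8 had an ST-HSC mean at least 5 times that of every other control population: Cdh5, Stab1, Stab2, Adgrf5, Hspg2, Mmrn2, F8 and Sema6a. The choice of the lower genes by a high ST-HSC level against MPP4 favours such a count, and the share over all tested genes was not computed. Several of the 8 genes are known from endothelium. Adgrf5 had 0 counts in all MPP4 libraries, against 4.70, 18.4 and 14.6 CPM in ST-HSC, and was at least 34.8-fold lower (edgeR adjusted p = 0.0112). Ptprb, the gene of the endothelial phosphatase VE-PTP, had 0 counts in MPP4, against 10.3, 5.88 and 9.39 CPM, at least 23.5-fold lower (0.0112). Stab1, a relative of Stab2, fell 17.6-fold (0.00779), the apolipoprotein gene Apoe 4.17-fold (0.00806), and the retinaldehyde dehydrogenase gene Aldh1a1 13.6-fold (0.00918). These 5 calls held without any 1 of the 7 libraries.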
